A study of Saccharomyces cerevisiae with 180 samples.

Results

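Trimethylation of histone H3 lysine 4 (K4me3) was compared along genes in the strain labelled set2 and in the strain labelled bar1. The strain labelled bar1 is titled WT in its set and is written WT(bar1) here. The comparison used 10 of the 180 libraries of the series. They were the set2 and the WT(bar1) library of 5 antibody combinations, K4me3-Input, K4me3-K4me3, K4me3-K18ac, K4me3-K79me3 and K18ac-K4me3, where the first name is the first antibody and the second is the second antibody or Input. They were chosen as deep combinations among the 8 with K4me3, although K4me3-K18ac was shallow. Both combinations of K4me3 with K36me3, each deeper than K4me3-K18ac in both strains, and the K79me3-K4me3 combination were left out.

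The study mapped histone H3 and 4 of its marks in budding yeast by combinatorial indexed immunoprecipitation, in which nucleosomes bound by a first antibody are offered to a second one. All strains were grown in rich glucose medium (YPD) with no treatment, and the chromatin of formaldehyde-fixed cells was cut to single nucleosomes with micrococcal nuclease. The set2 and WT(bar1) strains, together with a strain labelled eaf3, came from a yeast deletion library. In another set of libraries the strains carried wild-type H3 (WT H3) or H3 in which lysine 4, 18 or 36 was replaced by arginine (H3K4R, H3K18R and H3K36R). Input was taken to mean material of the first antibody that met no second one; its labels leave this unstated.

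K4me3 is placed by Set1, which travels with RNA polymerase II early in transcription, and the mark is normally densest on the first nucleosomes of active genes. Set2 is the methyltransferase for lysine 36 of H3 and acts on elongating polymerase, so that K36me3 lies over gene bodies. Methylated lysine 36 is bound by Eaf3, a subunit of the Rpd3S deacetylase complex, and loss of this pathway is known in yeast for acetylation of gene bodies and for transcription from promoters inside genes.

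Depth ran from 15742 to 1214263 reads per library. Against that choice, the K4me3-K18ac libraries were shallow, with 39204 reads in set2 and 15742 in WT(bar1), and the remaining 8 libraries held 543237 or more. The left-out K4me3-K36me3 libraries held 133619 reads in set2 and 424973 in WT(bar1), and those of K36me3-K4me3 held 50657 and 169559. Values of single genes are therefore given over the other 4 combinations. SET2 (YJL168C, chromosome X, 102227 to 104428), which checks the strain label, held 12, 11, 0, 9 and 1 reads in the set2 libraries in the order of the combinations above, against 137, 200, 0, 166 and 130 in the WT(bar1) libraries. BAR1 (YIL015W, chromosome IX, 322342 to 324105) was not depleted under the label bar1: it held 521 reads in the 5 set2 libraries and 312 in the 5 WT(bar1) libraries. NAM7 (YMR080C, chromosome XIII, 426712 to 429627) held 878 reads in the set2 libraries and 3 in the WT(bar1) libraries. Each direction below is thus relative to a strain that kept BAR1 reads and nearly lacked those of NAM7, and these 3 genes were left out of all gene values. Each strain and combination had 1 library, so there is no replicate and no test, and each SD is a spread over antibody combinations that share cells and, in part, first-step material. No H3 library of these strains was used, so every value is a share of its own library and the total amount of K4me3 cannot be compared.

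K4me3 reads lay farther into genes in set2. In each gene of 1500 bp or more, the first 500 bp after the start codon formed the 5-prime zone, and the stretch from 1000 bp to the stop codon formed the late zone. In K4me3-Input the late zone held 26.2% of all set2 reads (95% Wilson interval 26.2 to 26.3) and 15.6% of all WT(bar1) reads (15.5 to 15.7). In the same combination the 5-prime zone held 13.1% in set2 and 17.7% in WT(bar1). These intervals cover counting error only. Thus the share that the late zone gained exceeded the share that the 5-prime zone lost, and genes under 1500 bp held 31.4% of the set2 reads and 37.9% of the WT(bar1) reads.

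The log2 ratio of late-zone to 5-prime reads gave the same order in every combination. It was 1.00 in set2 and -0.18 in WT(bar1) for K4me3-Input, and 0.47 and -1.02 for K4me3-K4me3. It was 1.19 in set2 and -0.45 in WT(bar1) for K4me3-K18ac, 0.96 and 0.04 for K4me3-K79me3, and 1.08 and -0.17 for K18ac-K4me3. The lowest set2 value, that of K4me3-K4me3, lay above the highest WT(bar1) value, that of K4me3-K79me3. The set2 minus WT(bar1) difference was 1.30 ± 0.28 (SD, n = 5 combinations), and 1.21 ± 0.23 (n = 4) without the shallow K4me3-K18ac.

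**Figure D1:**
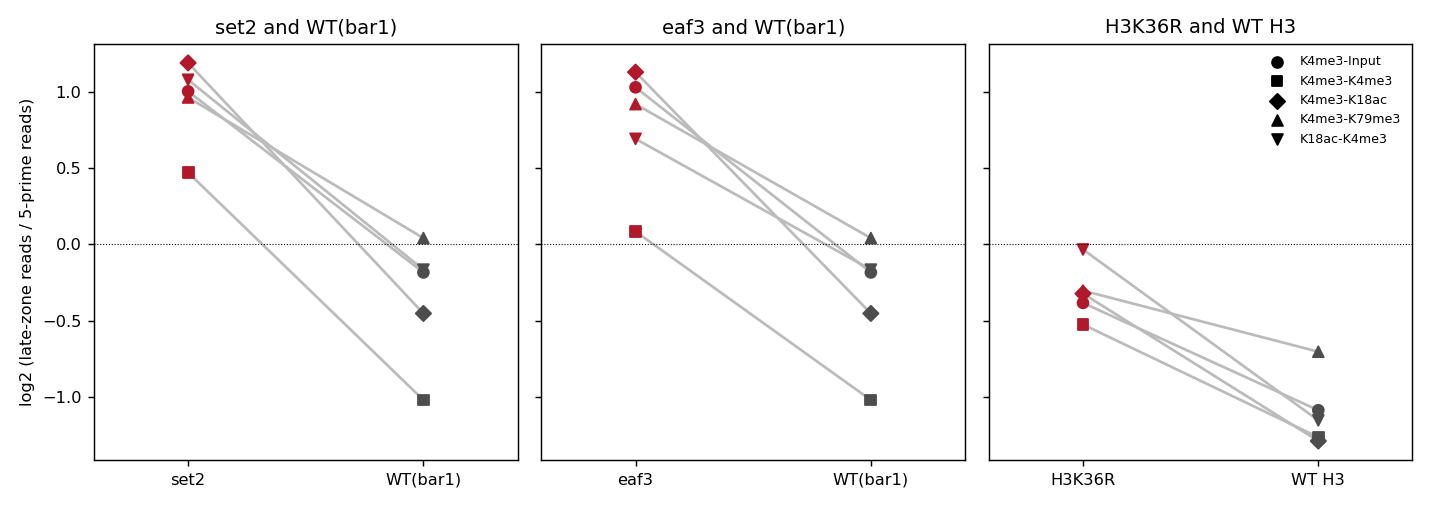
Log2 ratio of late-zone to 5-prime K4me3 reads for set2 and WT(bar1), for eaf3 and WT(bar1), and for H3K36R and WT H3; each point is 1 library, its shape gives the antibody combination, and a line joins the same combination in both strains. All 5 lines of set2 lie higher at set2, with values of 0.47 to 1.19, than at WT(bar1), with values of -1.02 to 0.04.

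The difference grew with distance from the start codon. In genes of at least 3000 bp, set2 over WT(bar1) reads per nucleosome (scaled to library size as counts per 1000000 reads, CPM) were 0.713 ± 0.085 in the first 200 bp (SD, n = 5 combinations) and 0.914 ± 0.041 at 400 to 600 bp. The ratio was above 1 from 600 bp, where it was 1.18 ± 0.14, and it was 1.83 ± 0.27 at 1000 to 1200 bp. It was largest at 2200 to 2400 bp with 2.42 ± 0.56. Set2 was lower in all 5 combinations in the first 600 bp and higher in all 5 beyond it.

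In K4me3-Input, set2 had 20.8 CPM per nucleosome in the first 200 bp, 14.6 at 1000 to 1200 bp and 12.5 at 2800 to 3000 bp. WT(bar1) had 28.8, 9.02 and 6.30 CPM per nucleosome at the same places. In this combination the set2 profile kept its 5-prime maximum and fell more slowly. Measured from the other end, the ratio was 2.52 ± 0.64 at 1000 to 1200 bp before the stop codon and 1.62 ± 0.39 in the last 200 bp.

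**Figure D2:**
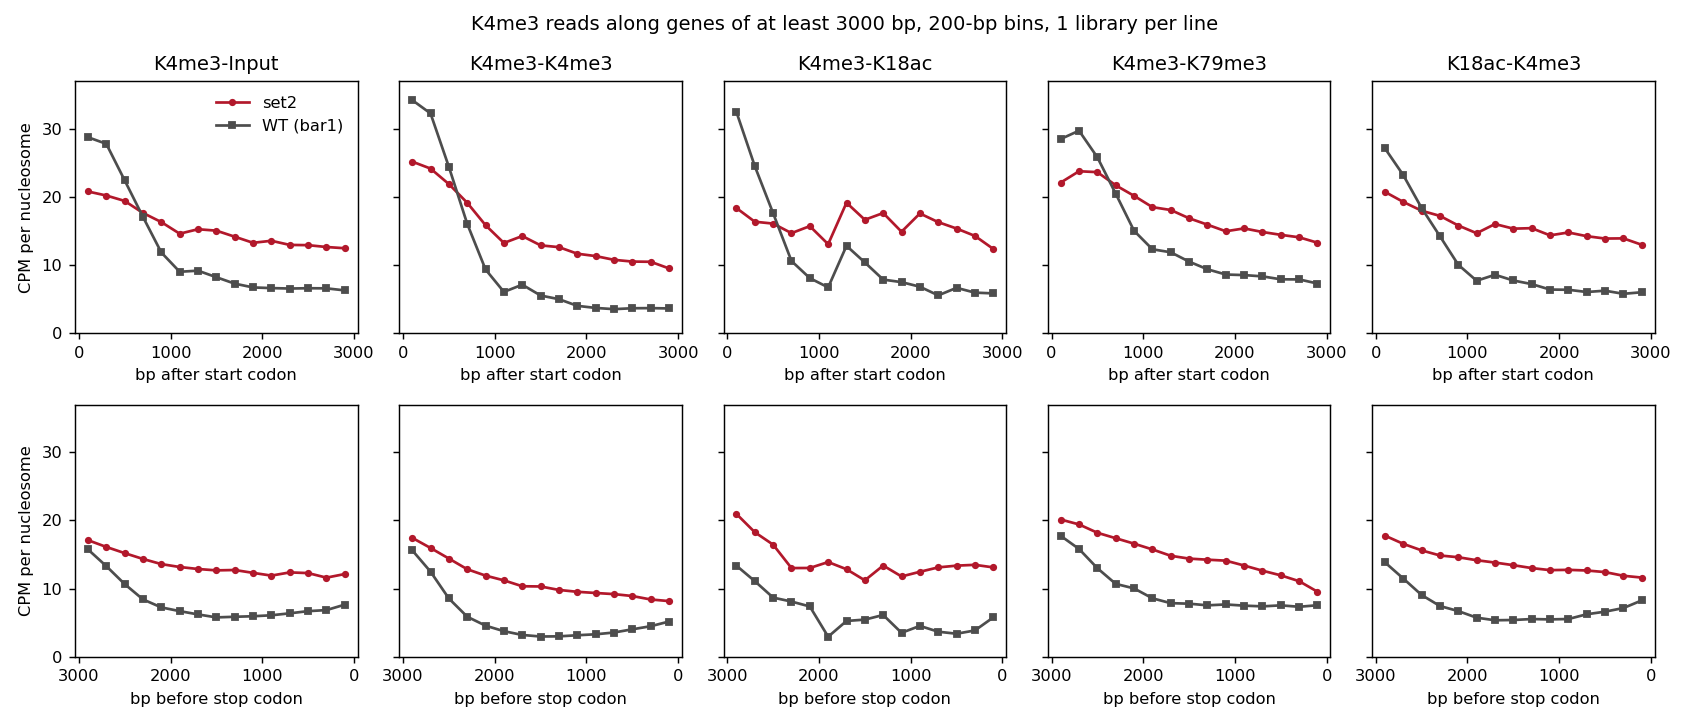
K4me3 reads along genes of at least 3000 bp in 200-bp bins, as CPM per nucleosome, from the start codon (upper row) and to the stop codon (lower row), with a panel for each antibody combination and a line for the 1 library of each strain. The set2 line lies below the WT(bar1) line up to 600 bp after the start codon and above it from there to the stop codon.

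The width of the K4me3 domain differed accordingly. In genes of at least 2000 bp, the level fell to 50% of its peak within 2000 bp for K4me3-K4me3 alone in set2, at 1414 bp, against 675 bp in WT(bar1). In the other combinations of WT(bar1) it did so at 769 bp for K4me3-Input, 561 bp for K4me3-K18ac, 933 bp for K4me3-K79me3 and 705 bp for K18ac-K4me3. Between 1500 and 2000 bp the set2 libraries kept 45.3% to 73.7% of their peak and the WT(bar1) libraries 13.7% to 31.4%, with no overlap between the strains. With genes of at least 3000 bp, the K4me3-K4me3 shift of 739 bp became 483 bp.

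The change depended on where nucleosomes lay relative to genes. The set2 over WT(bar1) ratio was 2.03 ± 0.32 (SD, n = 5 combinations) for late-zone nucleosomes more than 500 bp from the stop codon. In the last 500 bp it was 1.66 ± 0.29 before a convergent neighbour and 1.49 ± 0.21 before a tandem neighbour, whose promoter follows. Between genes it was 1.09 ± 0.10 at convergent ends, 0.880 ± 0.065 between tandem genes and 0.825 ± 0.059 between divergent genes, where promoters face each other.

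Most single genes held more late-zone K4me3 in set2. Of 2244 genes with a late zone, 2015 had at least 200 late-zone reads over the 10 libraries and were kept, and 229 were left out. Each change is log2 of CPM plus 1 in set2 over the same in WT(bar1), which understates changes of weakly covered genes in the deep libraries. In K4me3-K18ac, where 1 read was worth 25.5 CPM in set2 and 63.5 CPM in WT(bar1), it instead inflates changes against 0 reads, and the median change was 3.12 there. A gene was called higher when its mean change was at least 1 and every combination was above 0, and lower in the mirrored case. Over 5 combinations 911 genes (45.2%) were called higher and 5 (0.248%) lower. Over the 4 deeper combinations 651 (32.3%) were called higher and 3 (0.149%) lower, and 501 genes were called higher by both rules, which is 55.0% of the larger and 77.0% of the smaller group. The K4me3-K18ac library of WT(bar1) held 0 reads for 1220 of the 2015 genes. With its reads set to at least 3 per gene in both strains, an alternative chosen after the data were seen, 166 genes were called higher and 4 lower.

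Over the 4 combinations the median gene change was 0.80, a 1.75-fold difference, with quartiles of 0.50 and 1.11. The mean change was above 0 in 1921 genes and below 0 in 94, and 1499 genes were above 0 in all 4 combinations against 31 below 0 in all 4. The size depended on the combination: the median was 0.72 for K4me3-Input, 1.10 for K4me3-K4me3, 0.53 for K4me3-K79me3 and 0.87 for K18ac-K4me3. In the 5-prime zones of the same genes the medians were -0.41, -0.35, -0.28 and -0.34. Across genes, the changes of any pair of these combinations correlated with Pearson's r of 0.40 to 0.62 (n = 2015 genes, which are not independent replicates and come from the same cells).

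RIM15 (YFL033C, chromosome VI, 69115 to 74427), a protein kinase that prepares cells for quiescence, had the largest mean change over 5 combinations. Its late zone held 392, 338, 467 and 456 CPM in set2 in K4me3-Input, K4me3-K4me3, K4me3-K79me3 and K18ac-K4me3, against 123, 54.0, 103 and 126 CPM in WT(bar1). Every set2 value was above every WT(bar1) value, but such non-overlap was not counted over all genes and sets apart no gene here or below. The change was 2.08 ± 0.42 (SD, n = 4 combinations), 4.22-fold, and the counting interval of the K4me3-Input change alone ran from 1.30 to 2.06. In the 5-prime zone of the same gene the mean change was -0.28.

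SNT2 (YGL131C, chromosome VII, 261648 to 265859), a subunit of a histone deacetylase complex with Rpd3, held 354, 245, 314 and 307 CPM in set2 in the same order, against 83.7, 43.9, 70.0 and 96.4 CPM in WT(bar1). The groups did not overlap, and the change was 2.08 ± 0.33. MET10 (YFR030W, chromosome VI, 213312 to 216419), a subunit of sulfite reductase, held 229, 204, 275 and 330 CPM in set2, against 61.5, 27.0, 110 and 50.1 CPM in WT(bar1). Its change was 2.19 ± 0.73, again without overlap. SEC6 (YIL068C, chromosome IX, 233057 to 235474), part of the exocyst that tethers secretory vesicles, held 135, 100, 127 and 175 CPM in set2, against 35.9, 6.75, 70.0 and 43.7 CPM in WT(bar1), a change of 2.11 ± 1.18.

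These 4 genes stood among the 12 largest increases whether 4 or 5 combinations were averaged. The 8 others over 5 combinations were CCH1 (a plasma membrane calcium channel), IML1 (a regulator of TORC1 signalling), CSF1 and FMP27 (very large lipid-transfer proteins), TUS1 (an exchange factor for Rho1), USO1 (a vesicle tether), EAF1 (the scaffold of the NuA4 acetyltransferase) and TBS1. Their changes over 4 combinations lay between 1.56 for FMP27 and 1.94 for CCH1. All 12 genes of that ranking had 0 reads in the K4me3-K18ac library of WT(bar1). Over 4 combinations the 8 others were THI72, MIL1, APP1, YGL140C, SPP382, OSH2, DNF1 and MDL1, with changes of 1.98 for MDL1 to 2.41 for THI72. DNF1, a phospholipid flippase, held 388 ± 45.3 CPM in set2 and 102 ± 41.7 CPM in WT(bar1). THI72, a member of the thiamine transporter family, also changed by 2.27 in its 5-prime zone, and its late zone held as few as 3 reads in a WT(bar1) library.

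Within these genes the set2 reads were not spread evenly. All 24 late nucleosomes of RIM15 had a higher mean CPM in set2, and the highest, 3843 bp after the start codon, held 27.9 ± 2.36 CPM in set2 and 2.63 ± 2.52 CPM in WT(bar1) (SD, n = 4 combinations). At 11, 191 and 356 bp set2 was lower, with 17.7, 16.5 and 22.9 CPM against 22.9, 23.2 and 26.2 CPM in WT(bar1). Just past the 5-prime zone, at 514 bp, the strains were alike, with 26.9 CPM in set2 and 26.8 CPM in WT(bar1). In SNT2 the late maximum of set2 lay at 2614 bp with 24.4 ± 5.64 CPM, against 4.54 ± 2.05 CPM in WT(bar1), and all 17 late nucleosomes were higher in set2. In CCH1 all 30 late nucleosomes were higher, and the highest of them in set2 lay at 2774 bp with 25.6 ± 3.11 CPM, against 2.84 ± 0.95 CPM in WT(bar1). RIM15, SNT2 and CCH1 were picked for large changes of the whole late zone, which nearly fixed these counts in advance. Such counts were not made over all genes and set apart no gene.

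**Figure D3:**
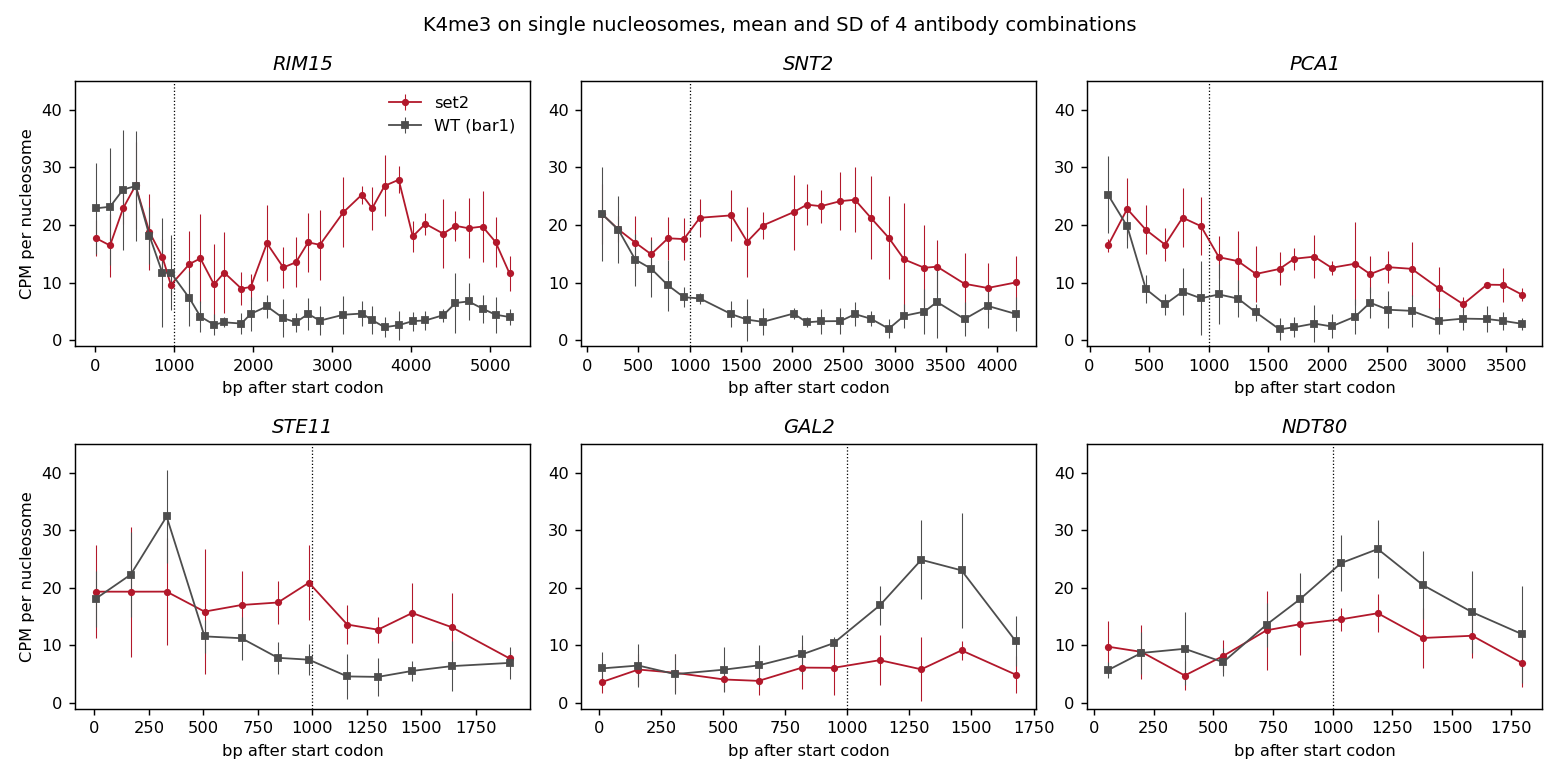
K4me3 on single nucleosomes along RIM15, SNT2, PCA1, STE11, GAL2 and NDT80, as the mean CPM of 4 antibody combinations against the distance from the start codon, with bars for the SD over combinations and a dotted line at the start of the late zone. RIM15 has an internal maximum of 27.9 CPM in set2, and GAL2 has one of 24.9 CPM in WT(bar1).

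At the level of single nucleosomes few positions were deep enough. Of 19781 late-zone nucleosomes, 1719 held at least 100 reads over the 10 libraries. Over 5 combinations 401 of them (23.3%) were called higher in set2 and 9 (0.524%) lower. Over the 4 deeper combinations the counts were 395 (23%) and 5 (0.291%). The higher ones lay in 239 genes at a median distance of 1544 bp from the start codon. A read minimum favours nucleosomes that are high in either strain, so these shares do not describe the other late nucleosomes.

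The largest increase over 4 combinations was on DNF1 (chromosome V, 516606 to 516756, sacCer3), 3937 bp after the start codon, with 32.0 ± 1.55 CPM in set2 and 2.17 ± 2.18 CPM in WT(bar1). TCB3, a tether between endoplasmic reticulum and plasma membrane, held 29.5 ± 4.91 CPM in set2 and 4.86 ± 4.29 CPM in WT(bar1) at 3074 bp (chromosome XIII, 126218 to 126368). IML1 held 27.4 ± 9.87 CPM in set2 and 3.59 ± 2.10 CPM in WT(bar1) at 1293 bp (chromosome X, 685785 to 685935). These 3 nucleosomes held only 6 to 12 reads in the WT(bar1) libraries. All 6 tested late nucleosomes of ESC1, a silencing protein at the nuclear envelope, and all 6 of SWC3, a subunit of the SWR1 remodeller, were called higher. Of all tested nucleosomes 23.3% were called higher over 5 combinations. ESC1 has 24 late nucleosomes, and the read minimum left the rest untested, while SWC3 has 6. YML045W had the most calls, with 7 of 11 tested. Reads of repeated genes may be exchanged between copies, and whether those of YML045W belong to it alone was not checked. These last genes were picked after their counts were seen.

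Few genes had less late-zone K4me3 in set2. GAL2 (YLR081W, chromosome XII, 290212 to 291936), the galactose permease, held 39.0, 29.6, 14.2 and 26.6 CPM in set2 in the 4 deeper combinations, against 85.4, 65.3, 55.2 and 96.4 CPM in WT(bar1). The strains did not overlap, and the change was -1.48 ± 0.43, 2.80-fold lower. The counting interval of its K4me3-Input change was wide, from -1.81 to -0.47. The nucleosome 1298 bp after the start codon held 5.85 CPM in set2 and 24.9 CPM in WT(bar1), where it was the maximum of the whole gene. Its 5-prime zone changed little, by -0.07.

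DTR1 (YBR180W, chromosome II, 589741 to 591459), a transporter needed for the spore wall, held 33.1, 30.5, 22.6 and 40.7 CPM in set2, against 99.1, 84.4, 55.2 and 107 CPM in WT(bar1), a change of -1.40 ± 0.13. GEX2, a glutathione exchanger, held 16.9 ± 6.83 CPM in set2 and 57.2 ± 28.9 CPM in WT(bar1), a change of -1.64 ± 1.01 with only 229 reads in all. GEX2 has a near-identical copy, so its reads are uncertain. GAL2, DTR1 and GEX2 were the 3 genes called lower over 4 combinations.

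Over 5 combinations the genes called lower were GAL2, DAL4, GIP2, ACS1 and NDT80. NDT80 (YHR124W, chromosome VIII, 356561 to 358444), the activator of middle meiotic genes, held 57.9, 59.3, 50.9 and 72.0 CPM in set2, against 99.1, 113, 77.3 and 108 CPM in WT(bar1), a change of -0.71 ± 0.16 over 4 combinations without overlap. Its highest nucleosome was the same in both strains, 1190 bp after the start codon, with 15.6 CPM in set2 and 26.7 CPM in WT(bar1). ACS1 (YAL054C, chromosome I, 42881 to 45022), an acetyl-CoA synthetase used on non-fermentable carbon, held 67.9 ± 8.68 CPM in set2 and 125 ± 52.5 CPM in WT(bar1), a change of -0.79 ± 0.43. DAL4, the allantoin permease, changed by -0.84 ± 0.63 and GIP2, a regulator of glycogen synthesis, by -0.45 ± 0.40 over 4 combinations. For DAL4, GIP2, ACS1 and NDT80 the 5-combination call rested on 0 to 2 set2 reads and 2 to 6 WT(bar1) reads of K4me3-K18ac.

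Genes with known internal promoters that Set2 represses were above 0 in all 5 measured cases, as were 1921 of all 2015 genes. Their median was 0.97, beside 0.80 over all genes. FLO8 was not analysed here. Over 4 combinations 2 of the 5 were called higher, against 32.3% of all genes, and over 5 combinations 1 was, against 45.2%. PCA1 (YBR295W, chromosome II, 792849 to 796499), a cadmium-exporting ATPase, held 182, 191, 173 and 197 CPM in set2, against 71.8, 43.9, 88.4 and 66.9 CPM in WT(bar1). It was higher in set2 without overlap, by 1.48 ± 0.48, and all 16 of its late nucleosomes were higher, a count not made over all genes.

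STE11 (YLR362W, chromosome XII, 849866 to 852019), a kinase of the mating and osmotic stress pathways, held 56, 63, 39 and 50 reads in set2, against 15, 14, 19 and 28 reads in WT(bar1). Scaled to depth, the lowest set2 value, 51.9 CPM, was above the highest WT(bar1) value. Its change was 1.18 ± 0.43, and it was called higher under both rules. SPB4, an RNA helicase of ribosome assembly, changed by 0.97 ± 0.74, but its K4me3-K79me3 change was -0.10. APM2, an adaptor protein subunit, changed by 0.64 ± 0.52 and DDC1, a subunit of the DNA damage checkpoint clamp, by 0.38 ± 0.72. None of these last 3 was called under either rule.

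Genes of the K4 and K36 methylation machinery lay near the median of all genes. All 9 with enough reads were above 0 on average, beside 1921 of all 2015 genes, and their median was 0.77. Over 4 combinations 2 of the 9 (22.2%) were called higher, against 32.3% of all genes. Over 5 combinations 5 (55.6%) were, against 45.2%. Called higher over 4 combinations were SIN3, a subunit shared by Rpd3 complexes, with 1.14 ± 0.44, and RPH1, a demethylase of lysine 36, with 1.13 ± 0.47. SET1 itself held 243, 184, 238 and 215 CPM in set2 and 111, 74.3, 168 and 114 CPM in WT(bar1), a change of 0.96 ± 0.34. Its values did not overlap, which was not counted over all genes, and it stayed just below the threshold for a call. BRE1 (a ubiquitin ligase for histone H2B), DOT1 (the lysine 79 methyltransferase) and JHD2 (a lysine 4 demethylase) were called higher over 5 combinations but not over 4.

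Other groups are read against all 2015 genes, of which 1921 were above 0, 32.3% were called higher over 4 combinations and 45.2% over 5. Both measured large subunits of RNA polymerase II were above the median of all genes: RPO21 changed by 1.41 ± 0.36 and was called higher, and RPB2 changed by 0.98 ± 0.46. Of 28 ribosome biogenesis genes 27 were above 0 and 5 (17.9%) were called higher over 4 combinations and 10 (35.7%) over 5, with a median of 0.77, below the shares of all genes. Among them UTP20, of the small subunit processome, held 391 ± 99.2 CPM in set2 and 163 ± 47.8 CPM in WT(bar1). Of 12 heat shock and stress genes all were above 0 and 3 (25%) were called over 4 combinations and 4 (33.3%) over 5, with a median of 0.71. The 4 proteasome genes had a median of 0.52, with 0 calls over 4 combinations and 2 over 5. Of 5 flocculin genes, which encode cell wall adhesins, 2 were called over 4 combinations (3 over 5), and reads of these repeated genes may be exchanged between copies. Among 46 subtelomeric genes, whose centres lay at most 20 kb from an end of the counted chromosome, 10 (21.7%) were called higher over 4 combinations and 9 (19.6%) over 5, with a median of 0.57. Over 4 combinations 1 of them, GEX2, was called lower, against 0.149% of all genes. This list holds copies of YRF1 whose reads cannot be assigned with certainty.

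Glycolytic, ribosomal protein, meiotic and hexose transporter genes stood near or below 0. The 4 glycolytic genes had a median of 0.13 and 0 calls in either direction by either rule. PFK2, a phosphofructokinase subunit, held 115, 143, 233 and 100 CPM in set2 and 167, 141, 184 and 84.9 CPM in WT(bar1), a change of 0.02 ± 0.39 with overlapping groups. The 2 ribosomal protein genes long enough to be measured, any introns included, were RPL7A and RPL7B, which are close copies of each other. They changed by -0.11 ± 0.12 and -0.01 ± 0.23. Of 9 meiosis and sporulation genes 5 were below 0, with a median of -0.05. RED1, of the meiotic chromosome axis, was called higher at 1.74 ± 0.46 and was picked out after its value was seen. Of 7 hexose transporter genes 5 were below 0, with a median of -0.15, and 0 were called over 4 combinations and 1 higher over 5.

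Genes repressed by glucose or induced by galactose formed the lowest group, in a list drawn up after single values were seen. Of 18 measured, 14 were below 0, with a median of -0.39, beside 94 below 0 of all 2015. Any close copies in this list or among the hexose transporters were counted singly, and their reads may be exchanged. MLS1, the malate synthase of the glyoxylate cycle, held 37.2 ± 6.97 CPM in set2 and 64.3 ± 23.0 CPM in WT(bar1). CTA1, the peroxisomal catalase, held 48.9 ± 16.1 CPM in set2 and 74.4 ± 21.4 CPM in WT(bar1). FOX2, an enzyme of peroxisomal beta-oxidation, changed by -0.43 ± 0.16 and GAL10, an enzyme of galactose breakdown, by -0.47 ± 0.28. The 4 members above 0 were the transcription factors ADR1 with 0.96 ± 0.13, CAT8 with 0.93 ± 0.42, GAL4 with 0.22 ± 0.33 and SIP4 with 0.19 ± 0.63. ADR1 and CAT8 were called higher over 5 combinations, on 3 set2 reads against 0 WT(bar1) reads of K4me3-K18ac each, and neither was called over 4.

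**Figure D4:**
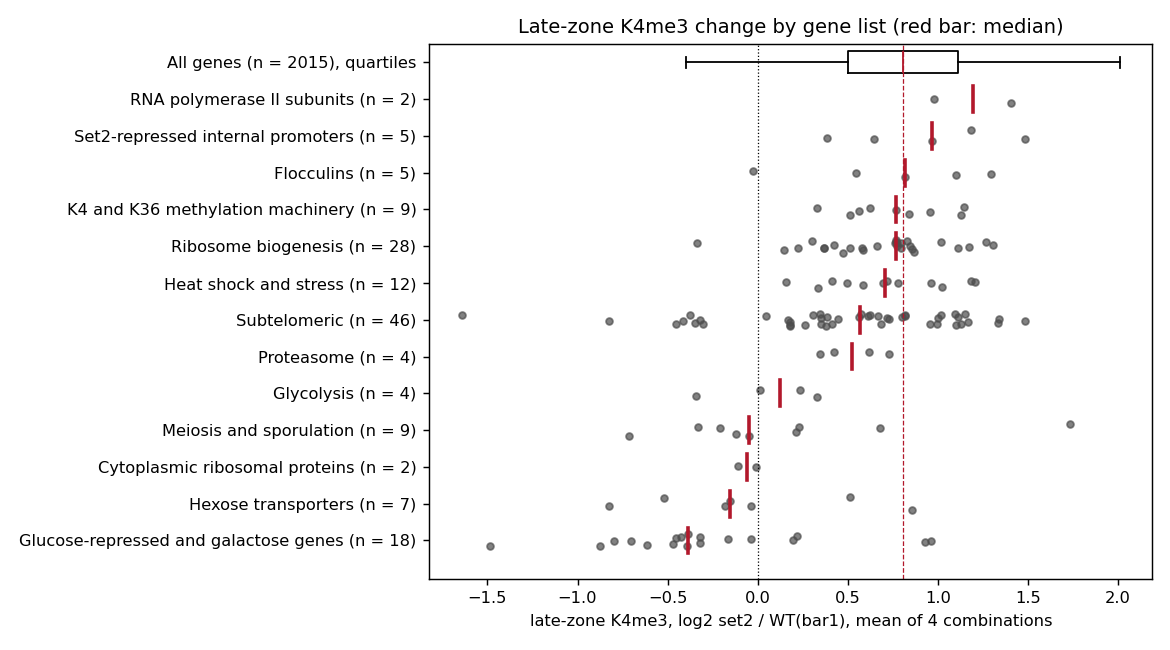
Late-zone K4me3 change (log2 set2 over WT(bar1), mean of 4 antibody combinations) of each measured gene, by gene list; points are genes, red bars are list medians, and the box on top gives the quartiles of all 2015 genes. Most lists lie around the median of 0.80 of all genes, while meiosis and sporulation genes, ribosomal protein genes, hexose transporters and glucose-repressed and galactose genes have medians below 0.

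The genes with low late-zone changes were then set beside K36me3. The K36me3 level of each late zone was taken from the K36me3-Input and H3-Input libraries of WT H3, which enter neither side of the set2 comparison, as the log2 ratio of both. In 3 equal groups of genes from low to high level, the median change was 0.72, 0.87 and 0.80. A finer division into twentieths, made after the data were seen, placed most of the difference in the lowest one. Its 101 genes had a median change of -0.04 with quartiles of -0.39 and 0.42, and 53 of them were below 0. The 1914 other genes had a median of 0.83, with 41 below 0. The twentieths from the second to the last lay between 0.51 and 0.97. The value of 0.51 was that of the last twentieth, which had the highest K36me3 level. Its genes had a median of 6 H3 reads and a median length of 1764 bp. Over 4 combinations 7 of the 101 and 644 of the 1914 were called higher.

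The lowest twentieth held 14 of the 18 glucose-repressed and galactose genes, 6 of the 9 meiotic genes and 5 of the 7 hexose transporter genes. It held 0 of the 4 glycolytic and 0 of the 2 ribosomal protein genes, lists that also stood near or below 0. It also held 23 of the 31 genes below 0 in all 4 combinations, which is 22.8% of its 101 genes. GAL2 had a K36me3 level of -3.26, from 16 K36me3 reads and 13 H3 reads, and ACS1 one of -3.08, from 28 and 19 reads. In contrast RIM15 had 0.32, SNT2 0.62 and STE11 1.47, although the last rested on 8 H3 reads. Other named genes did not follow this contrast. THI72 and MIL1, among the largest increases over 4 combinations, had levels of -0.55 and -0.12. GIP2, called lower over 5 combinations, had 1.07 on 3 H3 reads. PFK2 and RPL7A, with changes near 0, had 0.79 and 1.42. Late-zone K4me3 of the lowest twentieth was 11.4 CPM per nucleosome in set2 and 11.5 in WT(bar1), and that of the other genes 13.5 in set2 and 7.48 in WT(bar1). Their median length was 1869 bp, against 2304 bp in the other genes. Within genes under 2000 bp the median was -0.14 for the lowest twentieth and 0.60 for the others, and within longer genes 0.16 and 0.92. The part of transcription level in this pattern was not tested.

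**Figure D5:**
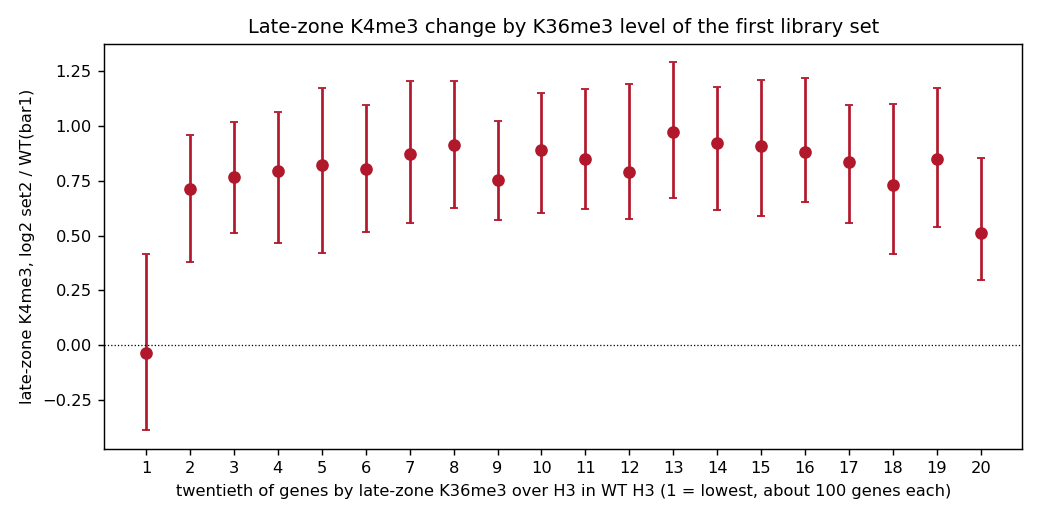
Median late-zone K4me3 change (log2 set2 over WT(bar1), mean of 4 antibody combinations) in twentieths of the 2015 genes, ordered by late-zone K36me3 over H3 in WT H3; bars span the quartiles of the genes. The lowest twentieth has a median of -0.04, and the other points lie between 0.51 and 0.97.

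Longer genes were called more often. The median change was 0.57 for 702 genes of 1500 bp to under 2000 bp, 0.84 for 786 genes up to 3000 bp, 1.04 for 410 genes up to 5000 bp and 0.92 for 117 genes from 5000 bp. Over 4 combinations 15.8%, 33.3%, 54.1% and 47.9% of these genes were called higher. At a fixed place, 1000 to 1500 bp after the start codon, the set2 over WT(bar1) ratio in the same order was 1.49 ± 0.20, 1.82 ± 0.36, 1.94 ± 0.37 and 1.52 ± 0.09 (SD, n = 5 combinations). Over all genes the change correlated with length (Pearson's r = 0.34, Spearman's rho = 0.41, n = 2015 genes). It correlated inversely with late-zone K4me3 over H3 in WT H3 (r = -0.44, rho = -0.41). Its correlation with late-zone K36me3 over H3 in WT H3 was weaker (r = 0.22, rho = 0.09). Gene length, read number and the length of the late zone move together here, and their parts were not tested.

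The same measures in other strains set the scale. The late to 5-prime difference was 1.13 ± 0.30 for eaf3 over WT(bar1), which shares the WT(bar1) libraries with set2. It was 0.79 ± 0.27 for H3K36R over WT H3 and 0.45 ± 0.06 for H3K18R over WT H3 (SD, n = 5 combinations each). The K4me3-K18ac and K18ac-K4me3 libraries of H3K18R, which has no lysine 18 to acetylate, held only 1029 and 2217 reads. Between the wild types, WT(bar1) over WT H3, it was 0.74 ± 0.29. That difference, between strains with neither SET2 nor EAF3 deleted and across library sets, was close in size to the H3K36R one.

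Over K4me3-Input, K4me3-K4me3 and K4me3-K79me3, 645 of the 2015 genes (32%) were called higher in set2 over WT(bar1) and 3 (0.149%) lower. For eaf3 over WT(bar1) the counts were 481 (23.9%) and 3 (0.149%). They were 495 (24.6%) and 33 (1.64%) for H3K36R over WT H3, and 172 (8.54%) and 40 (1.99%) for H3K18R over WT H3. For WT(bar1) over WT H3 they were 555 (27.5%) and 14 (0.695%). In K4me3-Input the median change was 0.72 for set2 over WT(bar1) and also 0.72 for WT(bar1) over WT H3, whereas in K4me3-K4me3 it was 1.10 and 0.30. In K4me3-K79me3 it was 0.53 for set2 over WT(bar1) and 0.68 for WT(bar1) over WT H3, so that the wild types differed more. Late-zone differences as large as those of set2 were therefore present in 2 of the 3 combinations between strains without the deletion, and strain and library cannot be told apart in these data.

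In H3K36R, whose H3 cannot be methylated at lysine 36 and whose libraries and WT H3 libraries are separate from those of set2, the median change over 4 combinations was 0.62. Across genes it correlated with that of set2 (Pearson's r = 0.44, Spearman's rho = 0.43, n = 2015 genes). RIM15 changed by 3.01 in H3K36R, SNT2 by 2.56, PCA1 by 2.91, GAL2 by -1.75, DTR1 by -1.89 and NDT80 by -0.86. Other large increases of set2 were smaller in H3K36R, with 1.22 for SEC6, 0.75 for OSH2 and 0.37 for SPP382. Still others were larger, with 3.07 for DNF1 and 3.34 for MDL1. ACS1, at 0.03, was not lower there. STE11 changed by 4.17, on 10 WT H3 reads.

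The lowest twentieth by K36me3 was also followed in the other strains. Over the 3 combinations above, its median was 0.06 for set2, -0.08 for eaf3 and -0.09 for H3K36R, where set2 and eaf3 share the WT(bar1) libraries and H3K36R was set against WT H3. The other genes had medians of 0.80, 0.69 and 0.53. In H3K18R the medians were 0.18 for the lowest twentieth and 0.26 for the others, and for WT(bar1) over WT H3 they were 0.48 and 0.66. No test of the difference between strains was possible with 1 library each.

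Libraries without a K4me3 antibody were measured the same way. The late to 5-prime difference of set2 minus WT(bar1) was 0.79 in K18ac-Input and 1.32 in K18ac-K18ac, so that acetylated lysine 18 also lay farther into genes. It was -0.12 in K79me3-Input and -0.25 in K79me3-K79me3, although those WT(bar1) libraries held only 10044 and 9216 reads. In K36me3-Input, where set2 lacks the mark and held 24149 reads against 348217 in WT(bar1), it was -2.37. The K18ac-K4me3 combination begins with K18ac material, so its change of 1.24 was measured on nucleosomes selected for both marks.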

How the data were processed

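The deposited values were raw counts of reads for each nucleosome and library, beside an atlas of 66360 nucleosomes of 151 bp, of which 65032 had counts. The atlas positions were used as deposited by the authors, on sacCer3. Reads were aligned with Bowtie2 to sacCer3, per the submitters' processing notes. Its version and the treatment of duplicate reads were not given in the sources used here, and duplicates would make counting intervals too narrow.

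Genes came from a RefSeq table of R64 with 6002 usable protein-coding genes, whose strand was read from the systematic name. Lengths are spans from the first to the last listed base, any introns included. The ends were taken as start and stop codons, as 96.4% of the lengths are multiples of 3. A nucleosome belonged to the 1 gene that held its centre, and 372 nucleosomes in several genes were left out. Counts were scaled to CPM by library total, and changes are log2 with a pseudocount of 1 CPM. Each group held 1 library, so no test was run, and comparisons are values with their spread over combinations. Intervals are 95% Wilson intervals for shares and 95% exact binomial intervals for the split of 1 gene's reads between libraries.

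The members and gene lists were chosen with earlier results of these data known. Named genes were the 12 largest increases and 6 largest decreases, the genes with Set2-repressed internal promoters, SET1 and the called genes of the K4 and K36 methylation list, up to 2 genes per other list with the most reads, and the nucleosomes with the largest increases in different genes; the same ranks were also taken over 4 combinations because K4me3-K18ac was shallow, and other names are marked as picked after their values were seen. Alternatives changed zone borders, gene length, combinations, pseudocount, read minimums, scaling and single libraries. Python 3.11.15 with numpy 2.4.6, pandas 2.3.3, scipy 1.17.1 and matplotlib 3.10.9 was used.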

Additional observations from a re-analysis of the deposited data

Results flagged for a closer look

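K4me3 was also read in 3 combinations that enter no comparison above. The late to 5-prime log2 difference of set2 minus WT(bar1) was 0.50 in K4me3-K36me3, from 133619 reads in set2 and 424973 in WT(bar1). It was 1.34 in K79me3-K4me3, where the WT(bar1) library held only 4281 reads. These values drew attention because they lie above 0 outside the libraries of the comparison. In K36me3-K4me3, which begins with K36me3 material, the difference was -0.89. The 3 combinations thus did not share 1 direction.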

How the results depend on the processing

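No paired analysis was possible because each strain and combination had 1 library and the labels carry no replicate numbers. Leaving out 1 combination at a time gave a late to 5-prime difference of 1.21 to 1.39, 651 to 1027 genes called higher, 3 to 7 lower, a 5-prime median of -0.36 to -0.25 and 395 to 469 nucleosomes called higher; the lowest counts of genes came without K4me3-K18ac. With all 8 combinations the difference was 0.93, 247 genes were higher and 0 lower, and 129 nucleosomes were higher. The 5-prime median reversed to 0.39, from -0.27. This setting adds K4me3-K36me3, with a difference of 0.50, and K36me3-K4me3, with -0.89. It also adds K79me3-K4me3, with 1.34 and the 4281-read library. Genes of at least 2500 bp gave 489 higher and 0 lower of 822 tested, and at least 500 late-zone reads gave 561 and 1 of 1009. The main setting gave 911 and 5 of 2015, so both alternatives test fewer genes and a different mix of them. A late zone from 1500 bp, or without the last 500 bp before the stop codon, gave 0 lower genes, again of fewer genes (1232 and 1347). Setting K4me3-K18ac to at least 3 reads per gene, added after the data were seen, gave 166 higher genes. Subtracting the change in K79me3-Input gave 632 lower genes, with a WT(bar1) library of 10044 reads. Minimums of 50 and 200 reads gave 3104 and 4 higher nucleosomes, of 13577 and 57. The K4me3-K4me3 shift was 483 bp in genes of at least 3000 bp. Over 5 combinations PFK2 changed by -1.79, and leaving out 1 combination gave -2.32 to 0.016, the last without K4me3-K18ac. The causes were otherwise not tested. The main limits are the single library per group, the shallow K4me3-K18ac pair and the lack of a common standard such as H3 in these libraries.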
